A study of Mus musculus with 54 samples.

Results

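The comparison set mouse embryonic stem (ES) cells lacking 58 kb of the Haunt locus against wild-type (WT) cells after 2 days of retinoic acid (RA). It comprised 4 RNA-seq libraries of the 54 samples of the series, 2 from the 58 kb knockout (named KO-i and KO-j) and 2 from WT (WT-1 and WT-2), and they were chosen by genotype, treatment and day. The cells were 46C, an ES line of 129/Ola origin that carries a green fluorescent reporter at Sox1, so knockout and WT cells share that allele. Both genotypes were held for 1 day in serum-free N2B27 medium with LIF and the 2 inhibitors known as 2i, then passaged into N2B27 with 2 µM RA and no LIF or 2i. The genome build is mm9. The labels do not say whether KO-i and KO-j are separate clones or what the ends of the deletion are, nor whether WT-1 and WT-2 are separate cultures. The p-values thus measure the spread between these libraries and not that of a known number of clones or cultures. The deletion removes the DNA of the locus with the RNA, and no group that lost the RNA alone is part of this comparison. Libraries of the same 2 genotypes at RA day 4, 2 each, entered the statistical fit to share one estimate of the spread.

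Haunt (Gm15055) is a long noncoding RNA transcribed on the side of the HOXA cluster where Hoxa2 and Hoxa3 lie. HOX genes encode homeodomain transcription factors that give positional identity along the head-to-tail axis, and RA turns them on in ES cells roughly in their order along the cluster. RA acts through receptors that bind DNA as dimers at paired half-sites, and RA-treated ES cells lose pluripotency genes while they gain HOX, neural and endodermal genes.

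Expression was given as FPKM, fragments scaled to transcript length and to the number of mapped fragments, for each gene or assembled locus. A gene was tested if it reached 1 FPKM in 2 or more of the 8 RA libraries, which left 15705 genes. Differences are knockout minus WT on the log2(FPKM + 1) scale, which understates the change of low genes, and they are called where limma's adjusted p over all genes tested is under 0.05. The spacing of low FPKM values in short entries, few of them usable, put depth at about 9038000 reads for KO-i and 16403000 for KO-j. The WT libraries came to 12954000 (WT-1) and 11958000 (WT-2). KO-i, the shallowest by this estimate, stood apart: its median absolute log2 gap over 9524 genes of at least 5 FPKM was 0.173 to WT-1 and 0.204 to WT-2. The same gap was 0.112 and 0.134 for KO-j, 0.161 between the knockout libraries and 0.136 between the WT libraries.

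The labelled state of the cells was seen in their markers. Stra8, an RA-induced gene, was at 2376 and 1261 FPKM in the knockout libraries, against 1165 and 735 FPKM in WT. Cyp26a1, the enzyme that degrades RA, was at 618 and 428 FPKM in the knockout, against 462 and 311 FPKM in WT. The pluripotency factor Pou5f1 was still at 53.6 and 111 FPKM in the knockout, against 120 and 154 FPKM in WT, so the day 2 cells held both RA-induced and ES cell transcripts. Defining genes of mesendoderm, fibroblasts, blood and muscle ranged from 0 to a few FPKM. Of the mesendoderm markers, Eomes was at 2.19 and 4.27 FPKM in the knockout, against 3.61 and 5.76 FPKM in WT, while Mixl1 reached at most 0.234 FPKM. Of the fibroblast markers, Col1a1 was at 0.986 and 1.56 FPKM in the knockout, against 2.06 and 1.88 FPKM in WT, while Lum and Postn were listed at 0 in all 4 libraries. Of the blood markers, Hba-a1 was at 1.86 and 1.38 FPKM in the knockout, against 1.97 and 1.89 FPKM in WT, while Ptprc reached at most 0.0222 FPKM.

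Of the 15705 genes, 4 (0.0255%) passed the threshold, 3 lower and 1 higher in the knockout. All 3 lower genes lie at the HOXA locus: Haunt itself, the antisense RNA Hotairm1 (Gm15051) and Hoxa5. The gene that was higher, XLOC_012662, is an unnamed assembled locus on chromosome 2 that met the expression filter only through the knockout libraries. An unadjusted p under 0.05 was found for 803 genes, 464 higher and 339 lower. The calls rest on all 4 day 2 libraries together: leaving out KO-i, KO-j, WT-1 or WT-2 left 0 genes past the threshold, with 430, 1629, 782 and 429 genes at an unadjusted p under 0.05. A fit on the 4 day 2 libraries alone also called 0 genes, with 728 at an unadjusted p under 0.05. With no expression filter Haunt, Hotairm1 and Hoxa5 were no longer called, without the intensity trend Hotairm1 and Hoxa5 were not, and at a pseudocount of 0.1 FPKM Haunt and XLOC_012662 were not.

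Counting by library, both knockout libraries lay above both WT libraries for 3625 genes and below them for 2183. That split depends on the scaling: it was 2769 above and 2917 below with each library centred on its median, 2863 and 2815 with each chromosome centred, and 3062 and 2509 after quantile normalization.

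**Figure D1:**
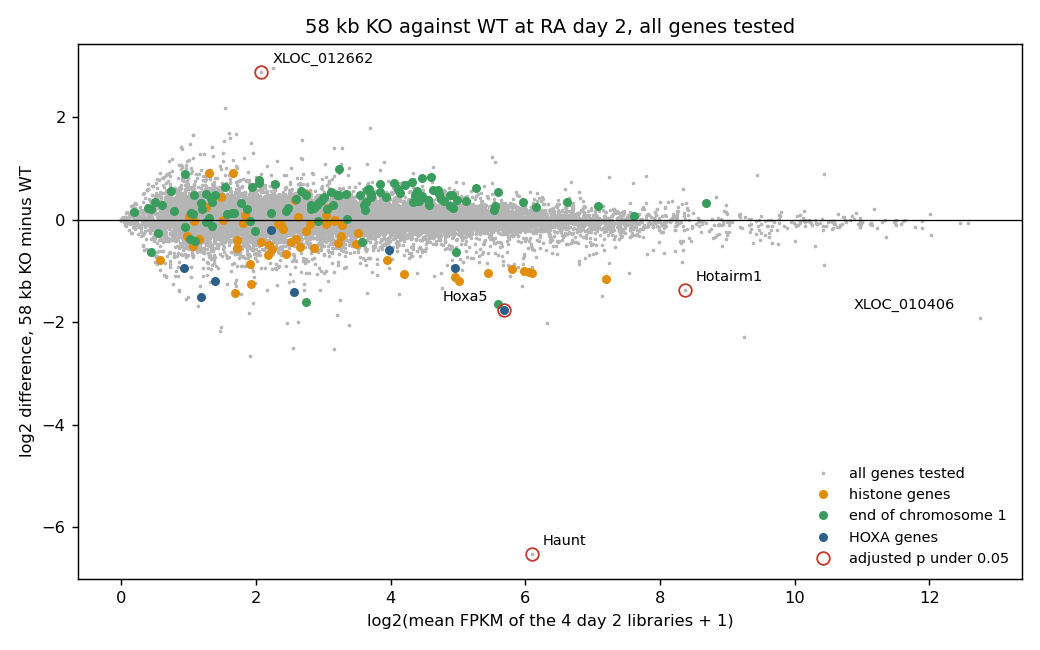
Log2 difference of the 58 kb knockout minus WT at RA day 2 (vertical axis) against the log2 of the mean FPKM plus 1 of the 4 libraries (horizontal axis), one point per gene tested. The 4 ringed genes passed an adjusted p of 0.05, and 3 of them lie at the HOXA locus; coloured points mark HOXA genes, histone genes and genes at the end of chromosome 1, and 1 HOXA gene is not coloured.

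Haunt was at 1.13 and 0 FPKM in the knockout libraries, against 128 and 142 FPKM in WT libraries. The groups were far apart and the lowest WT library was above both knockout libraries. The Haunt entry spans chr6:52052948-52062531 (mm9), and its log2 difference was −6.54 (SE 0.50, limma adjusted p = 0.0153). The deleted RNA was thus at or near 0 in both libraries labelled knockout.

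Hotairm1, an RA-induced RNA made antisense from the Hoxa2 end of the cluster, lies at chr6:52106901-52112118. It was at 172 and 195 FPKM in the knockout, against 501 and 453 FPKM in WT. The knockout mean was 38.4% of the WT mean, with a log2 difference of −1.38 (SE 0.12, limma adjusted p = 0.0202). The library kit is not described as keeping strand, so reads of Hotairm1 and of a gene on the other strand that overlaps it cannot be told apart.

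Hoxa5, a HOX gene needed for patterning of the neck and upper thorax and for lung development, was the called protein-coding gene. It was at 22.7 and 22.2 FPKM in the knockout, against 73.2 and 84.4 FPKM in WT. The knockout libraries were nearly equal and both lay far below WT. Mean levels were 22.4 ± 0.392 FPKM in the knockout and 78.8 ± 7.92 FPKM in WT (SD, n = 2 each), 28.5% of WT, with a log2 difference of −1.76 (SE 0.15, limma adjusted p = 0.0202). The Hoxa5 promoter window is shown because this gene carries the called HOXA difference. It holds RefSeq's bases from 250 before to 50 after the start (GRCm38.p6, not the build of the expression table, chr6:52204538-52204837, minus strand, 5′ to 3′). Capitals mark AGGTCA, the half-site letters of RA receptors, searched on both strands.
Hoxa5: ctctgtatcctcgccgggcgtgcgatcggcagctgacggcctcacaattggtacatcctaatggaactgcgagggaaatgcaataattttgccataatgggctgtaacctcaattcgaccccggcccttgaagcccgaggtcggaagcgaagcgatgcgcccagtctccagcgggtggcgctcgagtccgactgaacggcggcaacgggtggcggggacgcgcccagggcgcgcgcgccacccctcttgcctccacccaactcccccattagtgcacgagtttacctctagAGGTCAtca
The match begins 42 bases after the start, on the gene's strand. AGGTCA or its reverse complement was present in 16.2% of 32544 distinct windows of this length, and in the windows of 1 of the 7 tested HOXA genes that RefSeq's table holds. A match of these letters is a description and not a binding site.

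The wider HOXA cluster was lower with Hoxa5. Of 11 HOXA genes, 9 reached the expression filter and were tested, and in 8 of these both knockout libraries were below both WT libraries, against 13.9% of all genes tested. The median log2 difference of the 9 was −1.19, against 0.04 over all genes, and only Hoxa5 passed the threshold. Hoxa9 and Hoxa10 are among the 8 and enter the median. They reached the filter only through WT libraries, where they were higher, so their order is not support for a difference. Hoxa7 was at 1.78 and 2.70 FPKM in the knockout, against 8.33 and 6.81 FPKM in WT (log2 difference −1.41, limma adjusted p = 0.282). Hoxa3 was at 20.1 and 20.4 FPKM in the knockout, against 35.7 and 44.3 FPKM in WT (log2 difference −0.94, limma adjusted p = 0.350). For both genes the knockout libraries lay close together and below WT. The Hoxa3 entry spans Hoxa4, Hoxa5 and Hoxa6, so its reads may be shared with them.

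Hoxa6 was at 0.454 and 0.751 FPKM in the knockout, against 2.53 and 2.74 FPKM in WT (−1.19). Hoxa10 was at 0 and 0.327 FPKM in the knockout, against 1.61 and 3.11 FPKM in WT (−1.51). Hoxa9 was at 0.194 and 0.383 FPKM in the knockout, against 0.973 and 2.07 FPKM in WT (−0.94). These genes were under 1 FPKM in the knockout, so their log2 differences depend on the pseudocount. Hoxa4 was at 11.1 and 11.9 FPKM in the knockout, against 20.7 and 15.3 FPKM in WT (−0.59). Hoxa2, which patterns the hindbrain and the second branchial arch, was at 3.68 and 3.00 FPKM in the knockout, against 4.68 and 3.36 FPKM in WT (−0.20), and its groups overlapped. Hoxa11 and Hoxa13 reached at most 0.201 and 0.807 FPKM at day 2 and were not tested.

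**Figure D2:**
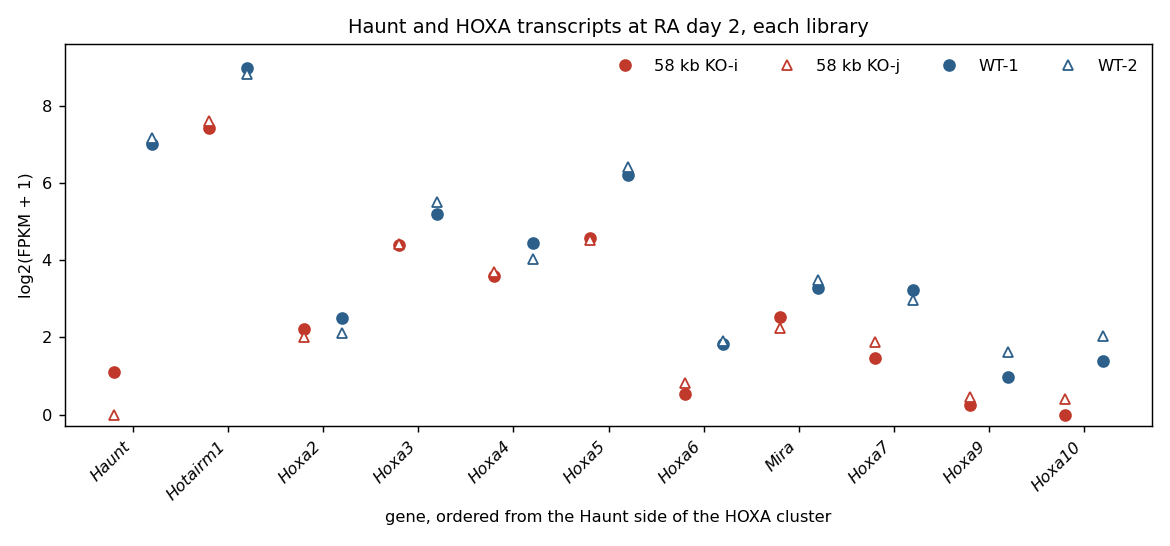
Log2(FPKM + 1) of Haunt, Hotairm1, Mira and HOXA genes in each RA day 2 library, with the 58 kb knockout (red) left of WT (blue); circles are KO-i and WT-1, triangles KO-j and WT-2. Both knockout points lie below both WT points for each transcript shown except Hoxa2; 1 HOXA gene is not plotted.

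Of the other noncoding transcripts of the cluster, 3 were lower in both knockout libraries and 2 overlapped. Over all genes tested, 13.9% were lower and 23.1% higher in both knockout libraries. Mira, an RNA from between Hoxa6 and Hoxa7, was at 4.72 and 3.74 FPKM in the knockout, against 8.68 and 10.3 FPKM in WT (log2 difference −1.003, limma adjusted p = 0.880). AK039882 was at 4.88 and 3.53 FPKM in the knockout, against 9.78 and 7.13 FPKM in WT (−0.86). The RNA 5730446D14Rik was at 1.47 and 1.51 FPKM in the knockout, against 2.96 and 2.92 FPKM in WT (−0.66). For each of the 3 the knockout libraries were below both WT libraries, and none passed the threshold. The RNA 2700086A05Rik, at 0.533 and 0.0978 FPKM in the knockout and 0.371 and 1.07 FPKM in WT, overlapped. AK142386, at 2.99 and 3.48 FPKM in the knockout and 1.85 and 4.51 FPKM in WT (0.09), overlapped too. These entries overlap or adjoin HOXA genes, and without strand their reads may be shared with them.

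Of 26 tested entries within 1 Mb of Haunt, 15 were lower and 2 higher without overlap, against 13.9% lower and 23.1% higher over all genes tested. The 15 include Hoxa9 and Hoxa10, which reached the filter only through WT libraries. Of the 10 that lie outside the span of the HOXA genes, Haunt left out, 2 were lower (Skap2 and the unnamed XLOC_019904) and 2 higher (Hnrnpa2b1 and Tax1bp1), with a median log2 difference of 0.03. These shares are near those over all genes, and none of the 10 passed the threshold. Skap2, a signalling adaptor and the nearest protein-coding gene on the side away from HOXA, was at 20.5 and 25.0 FPKM in the knockout, against 30.8 and 40.7 FPKM in WT (−0.62, limma adjusted p = 0.824). Further out on that side, Hnrnpa2b1 was at 470.5 and 471 FPKM in the knockout, against 458 and 464 FPKM in WT (0.03). Cbx3 was at 48.5 and 53.5 FPKM in the knockout, against 48.4 and 51.0 FPKM in WT (0.04), and the sign of both differences turns when each chromosome is centred. Past the HOXA cluster, Hibadh was at 26.6 and 31.0 FPKM in the knockout, against 26.6 and 28.6 FPKM in WT (0.06, negative when each chromosome is centred). Tax1bp1 was at 34.1 and 36.1 FPKM in the knockout, against 28.6 and 28.8 FPKM in WT (0.28).

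**Figure D3:**
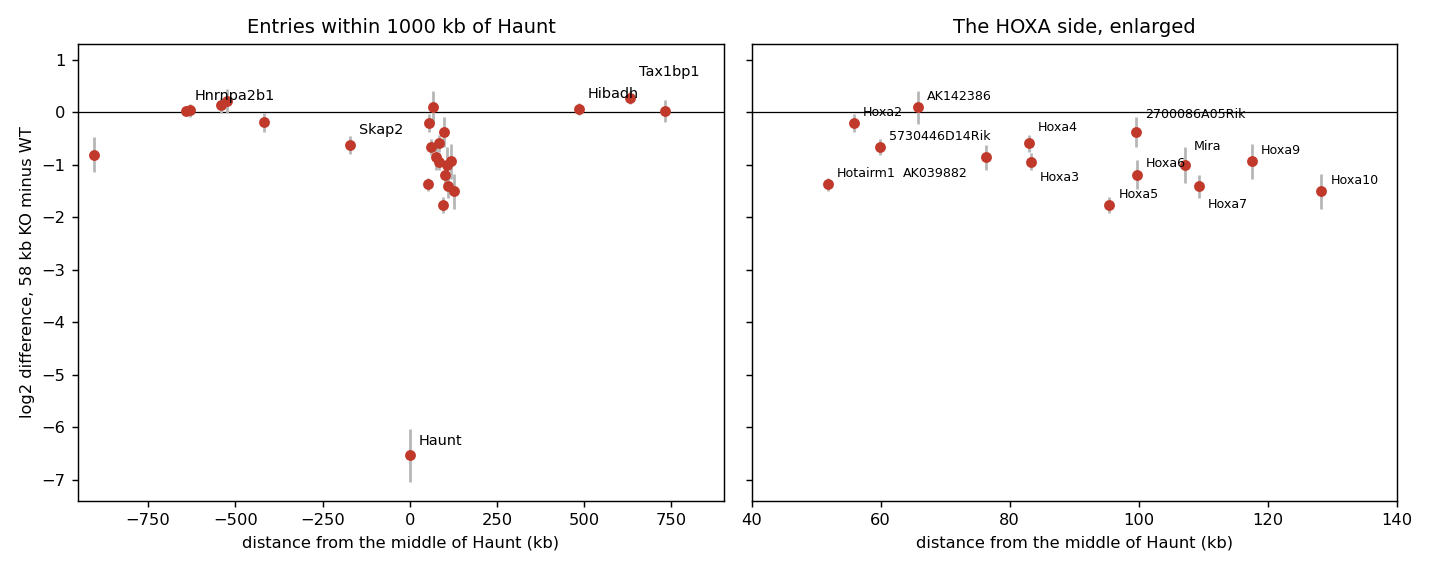
Log2 difference (58 kb knockout minus WT, RA day 2; bars are the limma standard error) of tested entries against the distance of their middle from the middle of Haunt, within 1000 kb (left) and enlarged over the HOXA cluster (right). Haunt is at −6.54 and Hoxa5 is the lowest HOXA gene at −1.76, while Hnrnpa2b1 (0.03), Hibadh (0.06) and Tax1bp1 (0.28) lie near or above 0; 1 HOXA gene is not plotted.

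The same entries at day 4 give the time course of these differences. The knockout and WT libraries of the 2 days are different libraries, and no gene passed the threshold at day 4 (0% of 15705, with 2263 at an unadjusted p under 0.05) or in the test of day 4 minus day 2 (0%, smallest adjusted p 0.170, with 873 genes at an unadjusted p under 0.05). Hoxa5 was at 99.3 and 118 FPKM in the knockout at day 4, against 133 and 172 FPKM in WT, a log2 difference of −0.48. Its difference was 1.29 smaller in size than at day 2 (SE 0.21, limma adjusted p = 0.710). Hoxa3 differed by −0.16 and Hoxa7 by −0.76 at day 4. At day 4 both knockout libraries were below both WT libraries for 6 of the 9 tested HOXA genes and above for 1, against 21.7% of all genes below, and the median was −0.63. Hoxa9 and Hoxa10, which reached the filter only through WT libraries, are among the 6. Haunt itself was at 3.08 and 0.447 FPKM in the day 4 knockout, against 31.8 and 40.6 FPKM in WT.

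The called gene that was higher, XLOC_012662, is a locus at chr2:117011994-117013167 with no gene name in the table. It was at 7.08 and 5.85 FPKM in the knockout at day 2 and listed at 0 in both WT libraries and in all 4 day 4 libraries (fitted log2 difference 2.90, SE 0.20, limma adjusted p = 0.0141). The nearest named gene, Spred1, a brake on ERK signalling, ends 13.4 kb away and was at 9.64 and 13.9 FPKM in the knockout, against 15.7 and 15.4 FPKM in WT. A value listed at 0 in an FPKM table can be a failed estimate. This locus met the expression filter only through the day 2 knockout libraries, in which it was high. The groups listed at 0 had no spread, which lowers the shared estimate, so its p-value is not support for a difference.

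Outside HOXA, the genes of smallest p that were higher came largely from one chromosome end. Of the 15 named higher genes of smallest p at a mean of at least 2 FPKM, 10 lie on chromosome 1 and 9 of these beyond 180 Mb, whereas 0 of the 15 lower ones lie there. Among all 15705 genes tested, 113 lie on chromosome 1 beyond 180 Mb and 727 on the rest of it. Bpnt1, a nucleotidase, was at 24.6 and 23.1 FPKM in the knockout, against 13.8 and 14.0 FPKM in WT (log2 difference 0.74, limma adjusted p = 0.350). Its neighbour Iars2, the mitochondrial isoleucyl-tRNA synthetase, was at 44.1 and 47.4 FPKM in the knockout, against 29.0 and 29.4 FPKM in WT (0.63, limma adjusted p = 0.350). Ints7, an Integrator subunit, was at 54.3 and 58.4 FPKM in the knockout, against 39.3 and 37.4 FPKM in WT (0.54). The libraries of each genotype lay close together. The others on this chromosome were Trp53bp2 (0.57), Marc2 (0.50), Kctd3 (0.48), Cdc42bpa (0.60), Wdr26 (0.48), Rps6kc1 (0.58) and Shisa4 (0.48), on the log2 scale. Away from it lay Rnf157 (0.68), Gpx8 (0.62), Sfi1 (0.52), 2610042L04Rik (0.72) and Fam195b (0.47). None of the 15 passed the threshold.

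The whole end of chromosome 1 was displaced in the knockout libraries. Of the 113 genes tested beyond 180 Mb, 79 (69.9%) were higher in both knockout libraries than in both WT libraries, against 23.1% of all genes tested, and the median log2 difference was 0.36. Over the 72 of them with a mean of at least 5 FPKM, the median difference from the WT mean was 0.32 in KO-i and 0.49 in KO-j, and at day 4 it was 0.39 and 0.48. Along the rest of chromosome 1, the median of KO-i was above the WT mean in every 20 Mb bin with at least 20 genes, by 0.22 to 0.36, while that of KO-j lay near it. The medians over the whole chromosome were 0.31 in KO-i and 0.01 in KO-j, and at day 4 they were 0.29 and −0.02. Chromosome 14 was displaced by 0.14 in KO-i and 0.02 in KO-j. Chromosome 6, which holds HOXA, was displaced by 0.09 in KO-i and 0.20 in KO-j, opposite in sign to the HOXA differences. With each chromosome centred in each library, the median of the 9 HOXA genes was −1.33. WT-2 also stood apart: all 57 genes of at least 5 FPKM beyond 140 Mb on chromosome X were highest in WT-2, with a median FPKM ratio of 2.04 to WT-1. In the 20 Mb bin that starts at 140 Mb (40 genes), the median log2 gap of WT-1 minus WT-2 was −0.98 at day 2 and −0.90 at day 4. The part of these displacements in the differences of single genes was not tested.

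**Figure D4:**
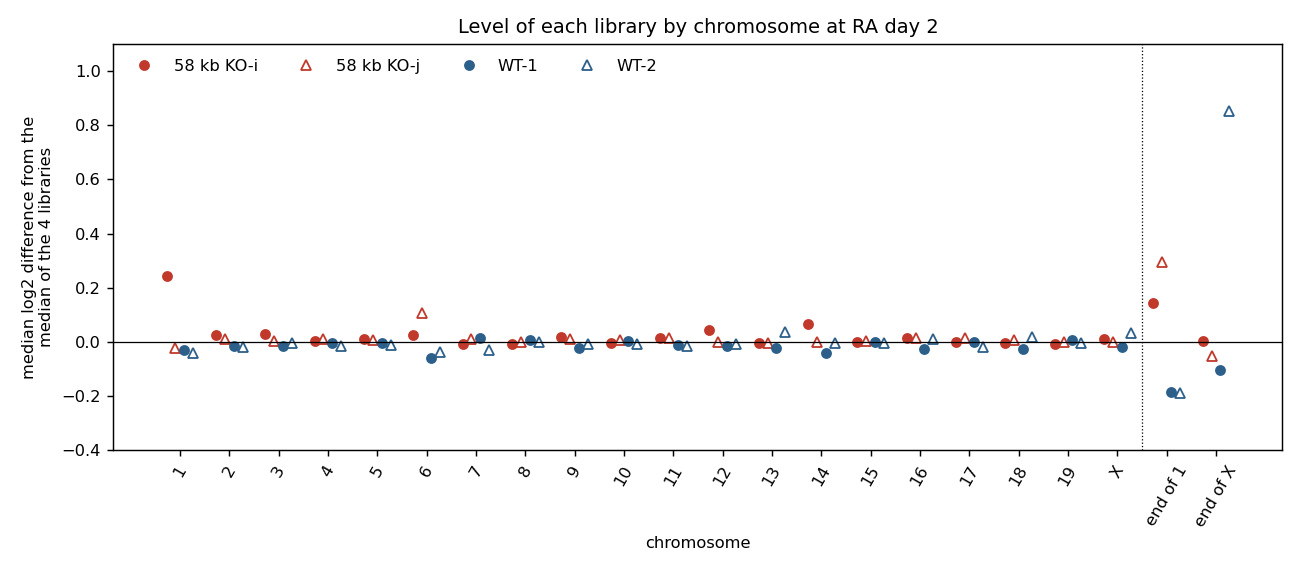
Median over genes of at least 5 FPKM of each library's log2 value minus the median of the 4 day 2 libraries, by chromosome, with the ends of chromosomes 1 (from 180 Mb) and X (from 140 Mb) at the right; the 58 kb knockout is red, WT blue. KO-i is raised on chromosome 1, both knockout libraries are raised at its end, and WT-2 is raised at the end of X.

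The genes of smallest p that were lower, besides the HOXA transcripts, included ribosomal and histone RNAs, classes that mostly lack a poly(A) tail and are largely removed by mRNA selection on beads. Rn45s, the ribosomal RNA precursor, was at 65.3 and 82.6 FPKM in the knockout, against 202 and 211 FPKM in WT (log2 difference −1.48, limma adjusted p = 0.215). The overlapping locus XLOC_010406 was at 2226 and 3653 FPKM in the knockout, against 9957 and 11599 FPKM in WT. RP23-81C12.1, which lies within both, was at 148 and 279 FPKM in the knockout, against 924 and 1072 FPKM in WT. These 3 entries share one stretch of chromosome 17 and are not separate observations. Rmrp, the RNA of an endonuclease that processes ribosomal RNA, was at 3.15 and 2.60 FPKM in the knockout, against 17.6 and 9.50 FPKM in WT. Of 55 tested histone genes of the Hist clusters, 23 (41.8%) were lower and 4 (7.27%) higher without overlap, against 13.9% and 23.1% of all genes tested, with a median of −0.38. Hist1h2ab was at 15.8 and 21.6 FPKM in the knockout, against 41.0 and 41.2 FPKM in WT (−1.11), and Hist1h2ae was at 10.1 and 11.9 FPKM in the knockout, against 24.3 and 23.4 FPKM in WT (−1.05). Histone genes are near-identical copies, so reads may be split among them. At day 4 the log2 difference was 0.0005 for Rn45s and 1.14 for Rmrp, and the histone median was 0.11. The histone list, XLOC_010406 and Rmrp were singled out after their values were seen. Whether the efficiency of mRNA selection had a part in these or other differences was not tested.

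Also among the 15 lower genes of smallest p were Avpi1 (55.0 and 54.1 FPKM in the knockout, 84.5 and 77.3 FPKM in WT), AK192985 (35.7 and 35.2 FPKM in the knockout, 57.5 and 54.6 FPKM in WT) and Gm15698 (1.11 and 0.917 FPKM in the knockout, 4.00 and 3.07 FPKM in WT). Chrnb4, a nicotinic receptor subunit, was at 8.04 and 9.05 FPKM in the knockout, against 13.4 and 16.7 FPKM in WT. Slc51a, a bile acid transporter subunit, was at 1.99 and 2.65 FPKM in the knockout, against 5.50 and 5.26 FPKM in WT. None of these passed the threshold.

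A rule of size gave a wider view: groups that did not overlap, a log2 difference of at least 1 and a mean of at least 2 FPKM. It held for 76 genes, 19 higher (0.121% of genes tested) and 57 lower (0.363%), of which 25 were unnamed loci. Among the largest lower ones were Pyy, a gut hormone gene (11.6 and 62.9 FPKM in the knockout, 78.0 and 164 FPKM in WT), AK213200 (0 and 0 FPKM in the knockout, 7.16 and 3.87 FPKM in WT) and Gm11534 (0 and 2.84 FPKM in the knockout, 11.1 and 4.21 FPKM in WT). Among the largest higher ones was Gm12319 (11.4 and 5.87 FPKM in the knockout, 2.65 and 1.72 FPKM in WT). Several of these differ widely between libraries of one genotype. With KO-j left out the rule held for 309 genes, and with KO-i left out for 88.

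The other HOX clusters had medians nearer 0 than HOXA. Of 10 tested HOXB genes, 5 were lower and 1 higher without overlap, against 13.9% lower and 23.1% higher over all genes tested, with a median log2 difference of −0.12. Hoxb6 was at 60.1 and 69.6 FPKM in the knockout, against 104 and 101 FPKM in WT (−0.66, limma adjusted p = 0.550). Hoxb8 was at 56.7 and 67.3 FPKM in the knockout, against 92.1 and 95.6 FPKM in WT (−0.60). Hoxb1, an early RA target of the hindbrain, was at 136 and 117 FPKM in the knockout, against 121 and 88.6 FPKM in WT, and its groups overlapped. Of 7 tested HOXC genes 3 were lower and 0 higher (median −0.25), and of 6 tested HOXD genes 1 was lower (16.7%, near the share over all genes) and 0 higher (median −0.04). None of these genes passed the threshold.

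RA handling genes had medians near 0. Of 14 tested genes of retinoid transport and metabolism, 2 were lower (14.3%, against 13.9% of all genes tested) and 1 higher (7.14%, against 23.1%) without overlap (median 0.04), and of 15 tested receptor genes 1 was lower and 2 higher (median −0.01). Stra6, the cell-surface receptor that takes up retinol, was at 50.2 and 59.8 FPKM in the knockout, against 74.7 and 67.9 FPKM in WT (−0.37). Of 19 tested RA-induced genes outside HOX, 4 were lower (21.1%) and 2 higher (10.5%), with a median of −0.03. Lhx1, a regulator of kidney and head development, was at 4.09 and 2.66 FPKM in the knockout, against 6.01 and 6.97 FPKM in WT (−0.79), and Stra8 differed by 0.90 in the other direction. No gene of these lists passed the threshold.

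Genes of glycolysis and the hypoxia response were lower on balance in both knockout libraries. Of 22 tested, 14 were lower and 0 higher without overlap, a share of 63.6% against 13.9% of all genes, with a median of −0.34 (−0.34 in KO-i and −0.23 in KO-j), and none passed the threshold. Ldha, which makes lactate, was at 161 and 179 FPKM in the knockout, against 231 and 319 FPKM in WT (−0.67, limma adjusted p = 0.880). Pfkl, a phosphofructokinase subunit, was at 36.7 and 42.2 FPKM in the knockout, against 55.3 and 59.9 FPKM in WT (−0.54). Aldoa, an aldolase, was at 527 and 598 FPKM in the knockout, against 715 and 825 FPKM in WT (−0.45), and Pgk1 was at 131 and 144 FPKM in the knockout, against 170 and 186 FPKM in WT (−0.37). Vegfa, an angiogenic growth factor, was at 22.5 and 36.6 FPKM in the knockout, against 41.7 and 54.7 FPKM in WT (−0.71). WT-2 was the highest library for each of these 5. Outside the list, the lactate exporter Slc16a3, chosen after its values were seen, was at 17.1 and 21.4 FPKM in the knockout, against 35.5 and 36.6 FPKM in WT. Ndufa4l2, a hypoxia-induced gene among the 15 lower ones of smallest p, was also low in the knockout libraries (1.77 and 3.65 FPKM in the knockout, 9.04 and 7.68 FPKM in WT).

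The promoters of Ldha and Slc16a3 are shown as examples, Ldha from the list and Slc16a3 from outside it, chosen after its values were seen. They are RefSeq windows of the same design (GRCm38.p6), Ldha at chr7:46845554-46845853 and Slc16a3 at chr11:120948817-120949116, both on the plus strand, 5′ to 3′. Capitals mark ACGTG, the core of a hypoxia response element, on either strand; CACGTG holds it on both.
Ldha: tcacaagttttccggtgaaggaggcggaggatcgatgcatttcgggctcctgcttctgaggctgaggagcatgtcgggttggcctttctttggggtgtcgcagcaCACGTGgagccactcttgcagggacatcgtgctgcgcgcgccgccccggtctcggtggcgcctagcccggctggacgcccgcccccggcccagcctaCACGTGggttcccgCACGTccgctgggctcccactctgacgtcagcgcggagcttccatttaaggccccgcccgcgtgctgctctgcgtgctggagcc
Slc16a3: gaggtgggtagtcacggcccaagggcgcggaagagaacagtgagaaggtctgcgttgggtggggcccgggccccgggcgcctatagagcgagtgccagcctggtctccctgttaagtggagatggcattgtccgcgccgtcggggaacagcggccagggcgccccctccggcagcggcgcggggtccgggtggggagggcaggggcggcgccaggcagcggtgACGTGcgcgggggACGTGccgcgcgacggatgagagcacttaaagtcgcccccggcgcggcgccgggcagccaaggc
ACGTG was present on either strand in 19.7% of the 32544 windows, and in at least 1 window of 21.9% of the genes. Of the 21 tested genes of the glycolysis and hypoxia list that RefSeq's table holds, 14 (66.7%) had it. The list was made of known glycolysis and hypoxia response genes, so this share reflects that choice and does not bear on the knockout difference. Whether these letters are bound in these cells was not measured.

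Cholesterol and amino acid genes had medians below 0 that were smaller in size. Of 21 tested cholesterol synthesis genes, 9 (42.9%) were lower and 0 higher without overlap, against 13.9% and 23.1% of all genes tested (median −0.15). Sqle, squalene epoxidase, was at 36.0 and 40.1 FPKM in the knockout, against 45.2 and 51.4 FPKM in WT (−0.34), and Mvd differed by −0.30. Of 18 tested targets of the stress factor ATF4, 5 (27.8%) were lower and 1 (5.56%) higher (median −0.22, with −0.35 in KO-i and −0.06 in KO-j). Phgdh, the first enzyme of serine synthesis, was at 77.8 and 82.5 FPKM in the knockout, against 102 and 122 FPKM in WT (−0.47, limma adjusted p = 0.807). Mthfd2 (−0.43), Shmt2 (−0.46), Slc7a5 (−0.39) and Psat1 (−0.31), which act in serine, folate and amino acid handling, were also below both WT libraries. None of these genes passed the threshold.

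Pluripotency genes were lower mainly in KO-i. Of 15 tested naive pluripotency genes, 5 (33.3%) were lower and 0 higher without overlap, against 13.9% and 23.1% of all genes tested, with a median of −0.56 that was −0.995 in KO-i and −0.11 in KO-j. Klf5 was at 72.0 and 150 FPKM in the knockout, against 155 and 225 FPKM in WT, and Klf2 was at 21.2 and 40.6 FPKM in the knockout, against 59.2 and 47.6 FPKM in WT. Of 15 tested core genes, 6 were lower and 0 higher (median −0.36, with −0.68 in KO-i and −0.03 in KO-j). Utf1 was at 30.6 and 69.5 FPKM in the knockout, against 69.7 and 78.7 FPKM in WT, and Dppa2 was at 42.7 and 63.0 FPKM in the knockout, against 76.5 and 98.6 FPKM in WT. In these genes KO-i was the lowest library and KO-j lay nearer to WT. Gbx2, by contrast, was similar in both knockout libraries, at 22.7 and 24.1 FPKM, against 43.4 and 41.0 FPKM in WT (−0.82). Of 11 tested primed epiblast genes, 7 (63.6%) were lower and 1 (9.09%) higher (median −0.29), among them Sox3 (−0.59), Pou3f1 (−0.65), Zic2 (−0.47) and Dnmt3b (−0.39). None passed the threshold, and in bulk RNA fewer cells of a type cannot be told apart from less RNA per cell.

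**Figure D5:**
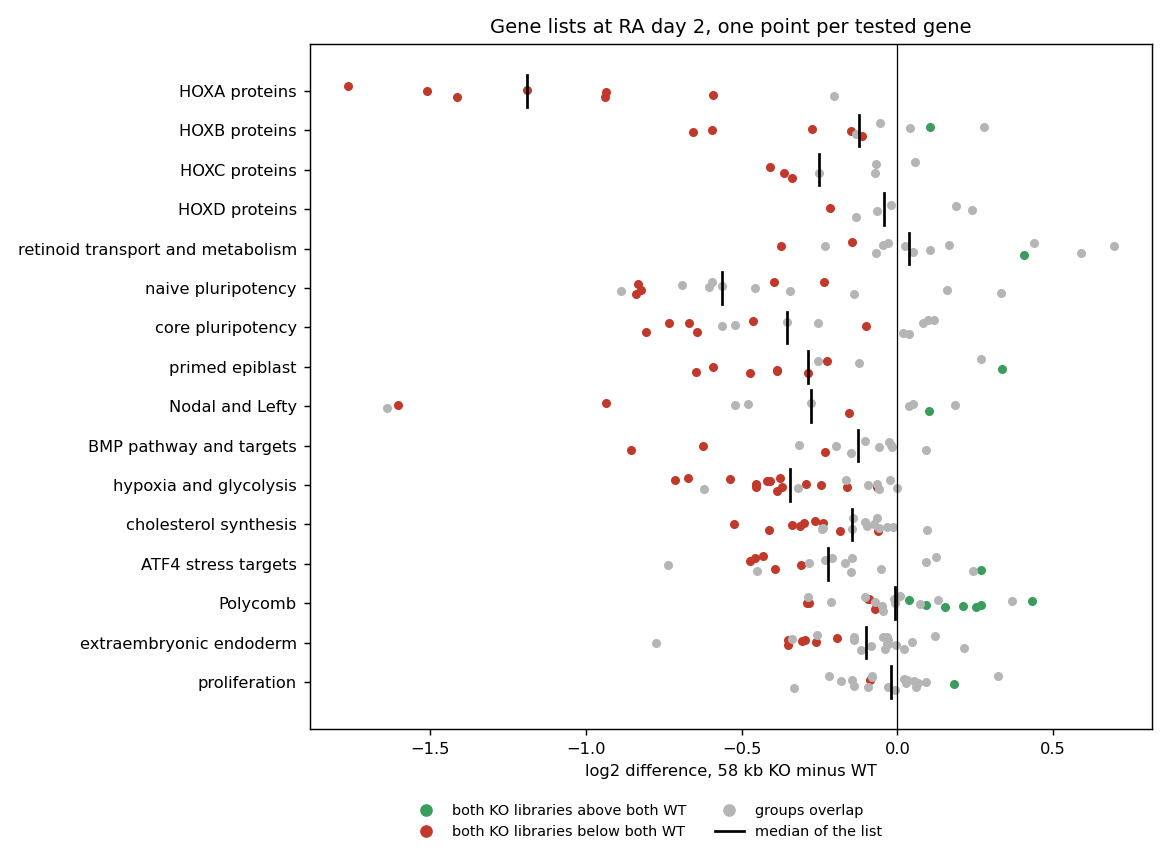
Log2 difference (58 kb knockout minus WT, RA day 2) of every tested member of 16 gene lists, one point per gene, with the list's median as a black bar; red points are lower and green points higher in both knockout libraries than in both WT libraries. The HOXA list lies furthest below 0, with naive and core pluripotency genes next (medians −0.56 and −0.36). Glycolysis and cholesterol genes have medians of −0.34 and −0.15. These lists and several others have no green point, and Polycomb and proliferation genes lie around 0. In the HOXA list 1 gene is not plotted.

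Among signalling genes, Id1, a target of BMP signalling that blocks differentiation factors, was at 9.49 and 8.28 FPKM in the knockout, against 17.2 and 16.5 FPKM in WT (−0.85, limma adjusted p = 0.796). The libraries of each genotype lay close together. Of the 12 tested BMP genes, 3 (25.0%) were lower and 0 higher without overlap, against 13.9% and 23.1% of all genes tested, with a median of −0.13, and Msx2 differed by −0.62. Lefty2, an inhibitor of Nodal, was at 0.393 and 5.30 FPKM in the knockout, against 5.38 and 11.7 FPKM in WT, and Lefty1 was at 5.32 and 60.1 FPKM in the knockout, against 47.1 and 76.9 FPKM in WT. Both were lowest in KO-i, and the groups of Lefty1 overlapped. Of the 11 tested Nodal genes, 3 (27.3%) were lower and 1 (9.09%) higher (median −0.28, with −0.64 in KO-i and 0.09 in KO-j). Of 18 tested FGF and ERK feedback genes, 4 (22.2%) were lower and 0 higher (median −0.29, with −0.55 in KO-i and −0.06 in KO-j). Dusp6 was at 42.0 and 67.0 FPKM in the knockout, against 73.0 and 86.7 FPKM in WT.

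Polycomb, proliferation, p53 and extraembryonic endoderm lists gave medians from −0.10 to 0.14, but not every chromatin and lineage list lay so near 0. DNA methylation genes had a median of −0.20 (−0.31 in KO-i and −0.0061 in KO-j), with 2 of 12 tested lower and 3 higher without overlap. Neuron genes had a median of −0.22 (−0.27 in KO-i and −0.08 in KO-j), with 4 of 10 tested lower and 2 higher. Of 25 tested Polycomb genes, 7 (28.0%) were higher and 5 (20.0%) lower without overlap, near the 23.1% and 13.9% of all genes tested (median −0.01). Aebp2, a cofactor of Polycomb complex PRC2, differed by 0.27, Phf19 by 0.43 and Ezh2, the PRC2 methyltransferase, by 0.25; Aebp2 and Ezh2 lie on chromosome 6, and none passed the threshold. Of 20 tested proliferation genes, 1 was higher and 1 lower (median −0.02). Of 16 tested p53 targets, 5 (31.2%) were higher and 1 (6.25%) lower (median 0.14), and Ccng1 was at 88.5 and 84.2 FPKM in the knockout, against 62.8 and 66.9 FPKM in WT. Extraembryonic endoderm genes, which RA also induces, were lower in 6 of 24 (25.0%) and higher in 0, with a median of −0.10, and their summed level was 765 and 747 FPKM in the knockout, against 822 and 734 FPKM in WT. Gata4 was at 7.02 and 6.73 FPKM in the knockout, against 7.24 and 9.83 FPKM in WT, and Gata6 was at 7.52 and 14.7 FPKM in the knockout, against 14.1 and 24.9 FPKM in WT.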

How the data were processed

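Poly(A)-selected RNA of 46C ES cells was sequenced on an Illumina instrument, per the labels' protocols. The authors deposited one table of 8 RA libraries, read here as FPKM from its values and column layout, with mm9 coordinates; per the submitters' processing notes, CASAVA, Bowtie 1.0.0, TopHat2 2.0.11 and MACS 1.4.2 were used in the series, with no role given. Which program made the FPKM values was not found in the labels. Starts listed from 0 were written from 1.

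Genes of at least 1 FPKM in 2 of 8 libraries were fitted as log2(FPKM + 1) with limma 3.58.1 in R 4.3.3 (intensity trend, 4 groups of 2, 4 residual and 3.50 prior degrees of freedom), contrast 58 kb KO minus WT at day 2, Benjamini-Hochberg adjusted over 15705 genes. The test was tested on simulated data with normal noise and known changes, which does not bear on how the calls depend on single libraries. With 2 libraries a side, an exact permutation test cannot reach 0.05 and was not used. Reads per library were estimated from short entries whose values fit 1 read; 50 to 76 entries of at most 1200 bp lay within 0.4% of the fitted line at day 2. Counts of genes whose groups do not overlap carry no test.

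Named genes are the called ones, HOXA genes and neighbours, the 15 higher and 15 lower of smallest p, list members of smallest p (up to 5) and large differences. The members and lists were chosen with earlier results of these data known. 1 HOXA gene is counted but not reported by name here. Alternatives covered pseudocount, filter, prior, libraries, scaling and a replicate block.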

Additional observations from a re-analysis of the deposited data

Results flagged for a closer look

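For 5 named genes both knockout libraries lay on one side of both WT libraries at day 2 and on the other side at day 4. The test of day 4 minus day 2 passed the threshold for none of them (limma adjusted p from 0.710 to 0.866), and no explanation was weighed. Hoxb6 differed by −0.66 at day 2 and 0.25 at day 4, a change of 0.91. Hoxa4 differed by −0.59 and 0.46, a change of 1.05. Sox3 differed by −0.59 and 0.12, a change of 0.71. Dhcr7 differed by −0.26 and 0.31, a change of 0.57. Gpx8 differed by 0.62 and −0.26, a change of −0.88.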

How the results depend on the processing

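The number of genes past the threshold at day 2 was 4; it was 7 with no expression filter (1 of the 4, XLOC_012662, among them), 4 without the intensity trend (2 of the 4, Haunt and XLOC_012662), 3 at a pseudocount of 0.1 FPKM (2 of the 4, Hotairm1 and Hoxa5), 0 with the 4 day 2 libraries alone and 0 to 0 with 1 library left out. With the library name as a replicate block (estimated correlation 0.25) it stayed 4, the same 4 genes. The labels pair no knockout with a WT library; gaps between the libraries of a genotype correlated across days by 0.385 in the knockout and 0.132 in WT, from 2 libraries each. The day 4 minus day 2 test called 0 genes, 5 with no filter, 1 without the intensity trend and 0 to 1 with 1 library left out. Genes below both WT libraries numbered 3520 with no filter; at a mean of at least 5 FPKM, 2314 lay above and 1377 below. Large differences numbered 126 at a pseudocount of 0.1 FPKM, 21 at 5 FPKM, 41 or 50 at a mean of at least 5 FPKM (over 8 or 4 libraries), and 88 to 309 with 1 library left out. The HOXA median ranged from −1.74 to −0.50, set by the pseudocounts. Signs turned for Hnrnpa2b1 (−0.0037 with median centring, −0.11 with chromosome centring), and with chromosome centring for Hibadh (−0.0856), Cbx3 (−0.11) and Snx10 (−0.0113). With 1 library left out the differences ranged from −0.0495 to 0.16 for Hibadh, −0.0339 to 0.11 for Cbx3, −0.0012 to 0.26 for Snx10 and −0.0221 to 0.48 for Rarb. The cause was not tested.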

Other observations

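Interferon response genes, which include sensors of viral RNA and antigen presentation genes, had a median log2 difference of 0.25. Of 9 tested, 3 (33.3%) were higher and 0 lower in both knockout libraries than in both WT libraries, against 23.1% and 13.9% of all genes tested, and none passed the threshold. The median was 0.35 in KO-i and −0.03 in KO-j. Of 11 tested TALE homeobox cofactors, which bind DNA with HOX proteins, 2 were higher and 2 lower (18.2% each, median −0.05), and of 18 tested MLL and enhancer cofactors 2 were higher and 2 lower (11.1% each, median 0.01).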
